A study of Mus musculus with 2 samples.

Results

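The genes described here encode S100 proteins (S100a4, S100a6, S100a8, S100a9, S100a10, S100a11 and S100a13) and galectins (Lgals1, Lgals3 and Lgals9). They were chosen by name with the P25 over medium ratios of these same arrays known, so those ratios describe them and are not tested. Each was read from every probe set (a group of array probes for a transcript) that the platform annotation gives to a single gene. Of the 10 genes, 9 had such a probe set, 12 probe sets in all, among 18193 genes named on the array. S100a11 had none, because the 1 probe set that lists it also lists 2 other symbols, and it has no value here. The alias S100a14 of S100a11 is also the symbol of another gene, so genes were matched by Entrez number.

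The arrays measured messenger RNA of antigen-presenting cells (APCs) from the spleen of female, 10-week-old wild-type C57BL/6 mice. Both groups were cultured with P25 TCR CD4+ T cells, whose transgenic T cell receptor is named after the peptide, the first overnight with P25, which this receptor recognises, and the other with medium alone. RNA of the enriched APCs from 3 experiments was mixed for 1 array per group, so no spread between replicates exists and no p-value is given. The comparison asks how transcripts of APCs differ between cultures in which the T cells do and do not meet their antigen, and every ratio below is the P25 array over the medium array.

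S100 proteins are small calcium-binding proteins that work as dimers. Inside cells they attach to partners such as annexins and the cytoskeleton, and some, above all the S100A8 and S100A9 pair of myeloid cells, are released and act as alarm signals. Galectins are lectins that bind β-galactosides on glycoproteins. They are found in the cytoplasm and outside the cell, where they cross-link receptors of lymphocytes and myeloid cells.

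Of the 9 genes with a value, 8 were lower with P25 and 1, Lgals9, was higher. Differences of at least 2-fold were found for S100a4 (7.06-fold lower), Lgals3 (5.44-fold lower), S100a10 (2.22-fold lower) and S100a9 (2.02-fold lower), and no gene was at least 2-fold higher. Signals were MAS5 intensities; those under a floor of 10.3, the 40th percentile over both arrays, were raised to it, and a gene was measured when at least 1 array exceeded it. Among all 12897 measured genes, 7.22% were at least 2-fold lower and 9.43% at least 2-fold higher. Among the 6914 genes with a mean signal of at least 100, as these genes have, the shares were 6.25% and 10.9%. The median log2 ratio was -0.70 over the 9 genes and 0.02 over all measured genes. These counts describe genes whose ratios were known when they were picked. Scaling both arrays to the same median over the measured probe sets moved the share of higher genes among all 2-fold calls from 56.6% to 71.7%, scaling to the spike-in controls moved it to 72.4%, and the median log2 ratio of all genes went to 0.16 and 0.17. Under these scalings 3 and 2 of the 9 genes were at least 2-fold lower, S100a4 and Lgals3 among them both times.

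**Figure D1:**
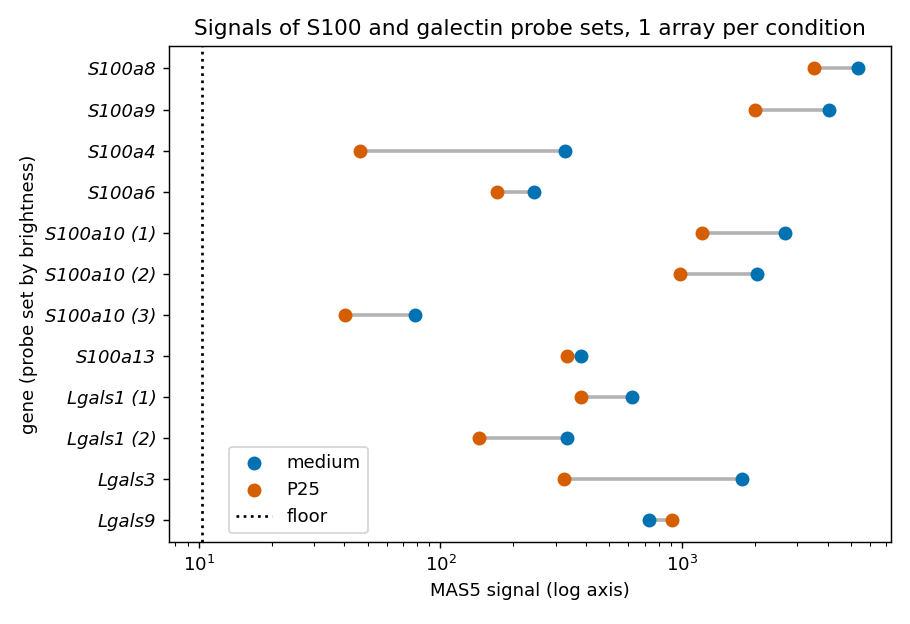
MAS5 signal (log axis) of the 12 probe sets, orange for the P25 array and blue for the medium array, with numbers in brackets ranking the probe sets of a gene by brightness and a dotted line at the floor of 10.3. The orange point lies left of the blue one for all probe sets except that of Lgals9, and the widest gaps are those of S100a4 (46.4 against 327.5) and Lgals3 (324.5 against 1765).

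Sequences upstream of the start site are shown for the genes with the largest differences, S100a4 and Lgals3, and for S100a8 and S100a9, whose genes lie next to each other on chromosome 3 with opposite strands. Each is the 250 bases before the annotated start in the RefSeq promoter table (build GRCm38.p6), read in the direction of the gene. The intervals are chr3:90603520-90603769, plus strand; chr14:47373610-47373859, plus strand; chr3:90668821-90669070, plus strand; and chr3:90695722-90695971, minus strand. Capitals mark matches, on either strand, to the TATA box (TATAAA), the CCAAT box (those letters), the AP-1 motif (TGANTCA), the PU.1 motif (GAGGAA), the C/EBP motif (TTGCNNAA) and the SP1 motif (GGGCGG).
S100a4: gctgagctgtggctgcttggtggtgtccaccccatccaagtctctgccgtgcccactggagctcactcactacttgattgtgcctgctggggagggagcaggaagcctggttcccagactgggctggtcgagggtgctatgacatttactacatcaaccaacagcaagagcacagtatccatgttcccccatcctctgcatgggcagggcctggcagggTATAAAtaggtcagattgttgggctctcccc
Lgals3: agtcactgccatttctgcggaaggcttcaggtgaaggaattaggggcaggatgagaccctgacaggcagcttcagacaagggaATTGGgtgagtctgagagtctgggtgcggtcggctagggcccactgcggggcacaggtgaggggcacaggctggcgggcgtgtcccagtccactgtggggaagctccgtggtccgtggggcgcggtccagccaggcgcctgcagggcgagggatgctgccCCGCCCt
S100a8: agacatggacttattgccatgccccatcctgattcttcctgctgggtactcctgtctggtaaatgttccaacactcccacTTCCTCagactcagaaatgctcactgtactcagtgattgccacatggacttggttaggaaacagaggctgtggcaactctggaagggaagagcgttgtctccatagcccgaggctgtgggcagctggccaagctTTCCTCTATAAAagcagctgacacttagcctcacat
S100a9: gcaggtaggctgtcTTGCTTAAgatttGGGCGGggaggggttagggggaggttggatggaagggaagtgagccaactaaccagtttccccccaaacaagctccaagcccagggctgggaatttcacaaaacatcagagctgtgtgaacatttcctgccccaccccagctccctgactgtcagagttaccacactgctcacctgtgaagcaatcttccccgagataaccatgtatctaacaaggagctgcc
S100a4 and S100a8 each had TATAAA on the gene's own strand, from 31 to 26 and from 30 to 25 bases before the start. These letters were found in 12.4% of 32851 upstream stretches of the same length. That share, like those below, counts a match on either strand at any place in the stretch, which is looser than a match at this place. In S100a8 a PU.1 match on the opposite strand ended where the TATA match began, without overlap, and 23.3% of all stretches held that motif. S100a9 had no TATAAA but a C/EBP match (9.56% of all stretches) and an SP1 match (32.7%). Lgals3 had a CCAAT match (33.8% of all stretches) and an SP1 match that ended 2 bases before the start, both on the opposite strand, and the highest G and C content of the 4, 66.0%, where the median of all stretches was 52.4%. A match describes letters in this window and is no binding site by itself.

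S100a8 and S100a9 encode the subunits of calprotectin, the abundant calcium- and zinc-binding complex of neutrophils and monocytes. The probe set of S100a8 had a signal of 3510 with P25 and 5331 with medium, 1.52-fold lower with P25 (log2 ratio -0.60). That of S100a9 had 2001 and 4043, a log2 ratio of -1.01. Both were thus bright on both arrays and lower with P25. Their log2 ratios differed by 0.41. To gauge disagreement between probe sets, the log2 ratios of the brightest 2 probe sets of a gene were compared. They differed with an SD of 0.46 over 2616 genes whose second probe set had a mean signal of at least 100. Over all 5293 genes with such a pair the SD was 0.58, so the subunits differed by less than either SD. Both probe sets of a pair are read from the same 2 arrays. The SD therefore holds no spread between arrays or cultures, and it is that of a difference of 2 ratios. S100a9 lay just past 2-fold and came to a log2 ratio of -0.87 when scaled to the median and -0.86 when scaled to the spike-in controls.

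Neutrophils are the classic source of both transcripts, and markers of neutrophils were lower on the same array. Of 12 neutrophil markers with a probe set, not counting S100a8 and S100a9, 11 were measured, all 11 were lower with P25, 8 of them by 2-fold or more, and the median log2 ratio was -1.25. The number at least 2-fold lower was 6 of 11 with median or spike-in scaling and 9 of 11 after loess. With the 60th and 75th percentile floors it was 5 of 9 and 3 of 6, with medians of -1.03 and -1.01. The summed signal of the 12 markers was 1839 with P25 and 4302 with medium, and the receptor gene Cxcr2 was below the floor on both arrays. The granule gene Ngp had signals of 871.8 and 2069, and Mpo 20.0 and 79.2. Markers of macrophages and monocytes, cells that express most of the S100 and galectin genes described here, were mostly lower too, 9 of 10 measured with a log2 ratio below 0 and Fcgr1 at 0.49. Of these 10, out of 13 with a probe set, 7 were lower by 2-fold or more. Of these calls, C1qb, Ccr2 and Mertk were below the floor with P25, so their ratios are bounds and could only be lower. The other calls, Csf1r, Cd68, Adgre1 and Lyz2, came from the 7 markers above the floor on both arrays. The 2 other probe sets of Csf1r were lower but within 2-fold (log2 ratios -0.89 and -0.86), and those of Ccr2 had log2 ratios of -1.26 and -0.13. Fcgr1 was dim (27.1 against 19.3), and its other measured probe set had a log2 ratio of -0.42. The median log2 ratio of the 10 was -1.24, and the summed signal of the 13 was 1407 with P25 and 3309 with medium. With median or spike-in scaling 6 of 10 were at least 2-fold lower. With the 60th and 75th percentile floors it was 4 of 6 and 4 of 4. C1qa, C1qc and Cd163 were below the floor on both arrays. The part of these cells in the lower S100 and galectin signals was not tested, and in RNA of a cell mixture fewer cells of a type and less RNA per cell cannot be told apart. Without S100a8 and S100a9, 3 of the remaining 7 genes were at least 2-fold lower and the median log2 ratio was -0.70.

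Among the S100 genes that are not calprotectin subunits, S100a4 stood lowest. S100A4 binds non-muscle myosin and is known from motile cells, among them myeloid cells and memory T cells. The single probe set of S100a4 had a signal of 46.4 with P25 and 327.5 with medium, a log2 ratio of -2.82. Only 3 of the 12897 measured genes had a lower ratio, and none of the 6914 genes with a mean signal of at least 100 did. The size depended on the floor, because the P25 signal was modest: raising the floor to the 75th percentile (122.0) gave a log2 ratio of -1.42. No other probe set of this gene was there to compare.

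**Figure D2:**
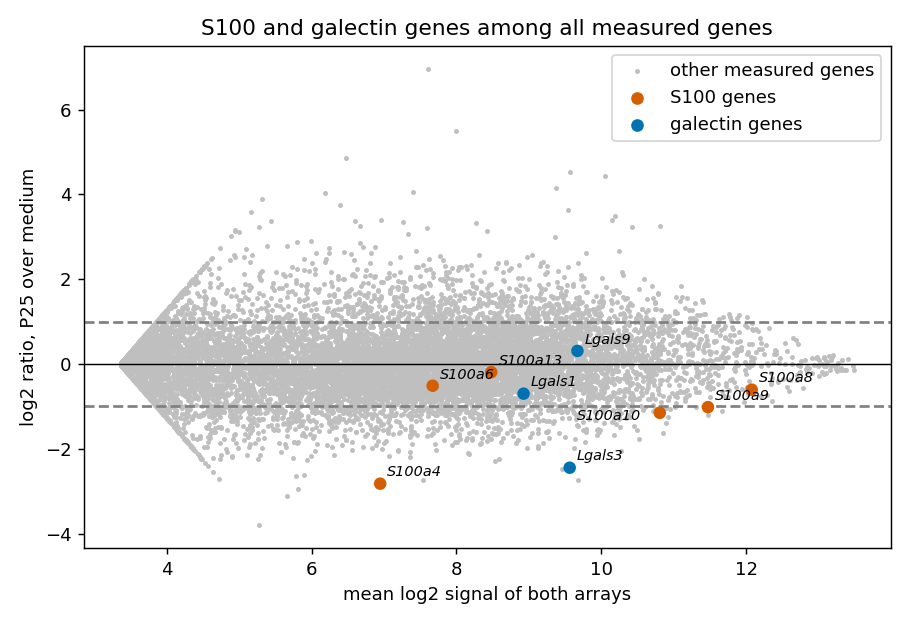
Log2 ratio of P25 over medium (vertical) against the mean log2 signal of both arrays (horizontal) for all 12897 measured genes in grey, with S100 genes in orange, galectin genes in blue and dashed lines at 2-fold. S100a4 (-2.82) and Lgals3 (-2.44) lie at the lower edge of the cloud for their brightness, while S100a13 (-0.19) and Lgals9 (0.31) lie within its middle.

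S100a10 had 3 probe sets, which went the same way. S100A10, also called p11, is the S100 protein that does not bind calcium, and it forms a tetramer with annexin A2. Its probe sets had signals of 1204 and 2671, of 978.4 and 2037, and of 40.4 and 78.6, in each case P25 before medium. The log2 ratios were -1.15, -1.06 and -0.96, a range of 0.19, so the third was just within 2-fold. With spike-in scaling the brightest came to -0.9992, which is also within 2-fold.

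S100a6 and S100a13 differed less. S100a6, whose protein calcyclin is linked to growth of cells, had signals of 170.7 with P25 and 243.2 with medium, 1.42-fold lower (log2 ratio -0.51). S100a13, whose protein takes part in the release of proteins that lack a signal peptide, had 334.3 and 381.3, 1.14-fold lower (log2 ratio -0.19). The ratio of S100a13 was smaller than the SD of 0.46 between probe sets of a gene, and 37.2% of measured genes had a lower one.

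The S100 genes with a value form a run on chromosome 3, which allowed neighbours to be set side by side. In the RefSeq order of protein-coding genes, S100a4, S100a5 and S100a6 follow each other, S100a8 is next to S100a9, and S100a10 is next to S100a11, apart from the others. Of 15 S100 genes of the run, 12 were named on the array and 9 were measured. The 6 described here had log2 ratios below 0 and the other 3, S100a1, S100a5 and S100a16, had ratios above 0. These 3 were dim, with signals of at most 38.9. S100a5 and S100a16 were below the floor with medium and measured only through the P25 array, so their ratios could only lie above 0. S100a16 was at least 2.20-fold higher with P25 (22.7 against a signal below the floor). The second measured probe set of S100a1 had a log2 ratio of -1.36 where the brighter had 0.43. The log2 ratios of S100a4 and S100a6, with S100a5 between them, lay 2.31 apart, and those of the direct neighbours S100a8 and S100a9 lay 0.41 apart.

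**Figure D3:**
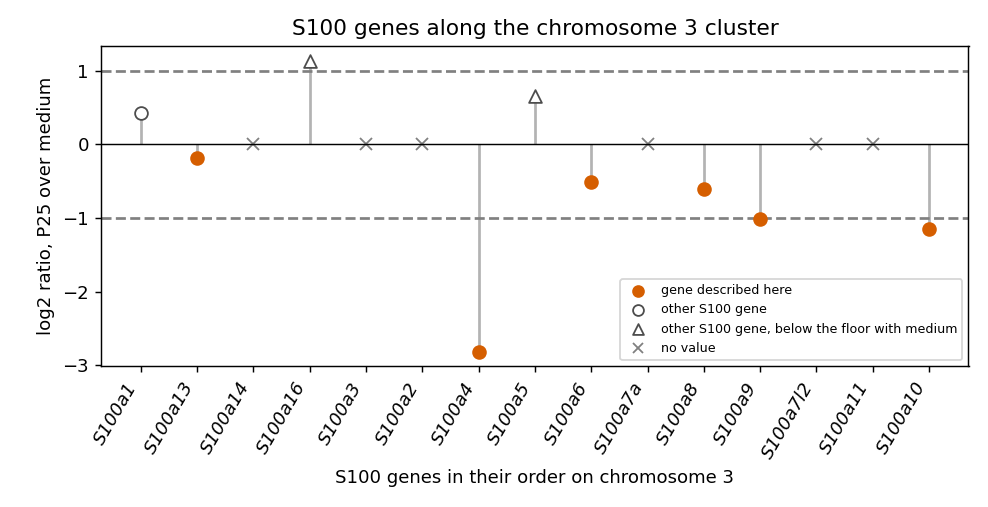
Log2 ratio of P25 over medium for the 15 S100 genes of chromosome 3 in their RefSeq order (equal spacing, no distances), with filled points for the genes described here, open points for other S100 genes, triangles for genes below the floor with medium and crosses, placed at 0, for genes without a value. The 6 filled points lie below 0, from -0.19 for S100a13 to -2.82 for S100a4, and the 3 open ones lie above 0. The triangles could only lie above 0, because those genes were measured through the P25 array alone.

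The galectins spanned a wide range. Galectin-3, encoded by Lgals3 and also known as the macrophage surface antigen Mac-2, is the member with a collagen-like tail that lets it form larger complexes. Lgals3 had a signal of 324.5 with P25 and 1765 with medium, a log2 ratio of -2.44. Only 11 measured genes had a lower ratio, 4 of them among the 6914 genes with a mean signal of at least 100. Over 7 alternatives its log2 ratio lay between -2.57 and -2.29. The higher floors and the median over probe sets could not change it, because both signals exceed those floors and its probe set is single.

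Lgals1 encodes galectin-1, a dimer known to dampen activated T cells. Its 2 probe sets had signals of 382.2 and 619.8, and of 144.5 and 332.9, P25 before medium. The log2 ratios were -0.70 and -1.20, so both were lower with P25 but only the dimmer was past 2-fold. They lay 0.51 apart, near the SD between probe sets of a gene. Lgals9 encodes galectin-9, a tandem-repeat galectin and a ligand of TIM-3. It had a signal of 907.7 with P25 and 731.6 with medium, 1.24-fold higher (log2 ratio 0.31). Of measured genes, 33.0% had a higher ratio. The ratio of Lgals9 was also smaller than the SD of 0.46, but that SD is of a difference of 2 ratios and sets no limit for a single one. The log2 ratio of Lgals9 lay 2.75 above that of Lgals3.

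**Figure D4:**
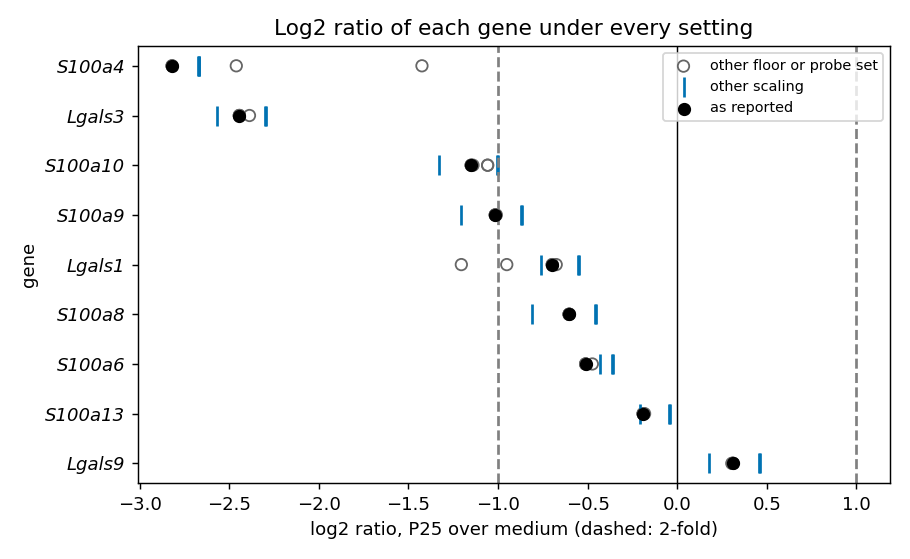
Log2 ratio of P25 over medium for each of the 9 genes as reported (black) and under other scalings (blue bars) or other floors and probe sets (open circles), with dashed lines at 2-fold. The order is led by S100a4 and Lgals3 as reported, each gene keeps its sign under every setting shown, and S100a10 and S100a9 lie at the 2-fold line.

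Other S100 and galectin genes and the known partners of these proteins were read from lists. The list of other galectins had 5 measured genes, of which Lgals3bp encodes a binding protein and no galectin. Of the other 4, Lgals4 was at least 2-fold lower and none was at least 2-fold higher. Lgals4, an intestinal galectin, was dim (30.1 against 69.9) and 2.32-fold lower, and within 2-fold with the floor at the 60th percentile (log2 ratio -0.86). Lgals3bp, whose secreted glycoprotein binds galectin-3, had a signal of 323.4 with P25 and 90.7 with medium, 3.56-fold higher. The gene of galectin-3 and that of its binding protein thus differed in opposite directions. S100pbp, which encodes a binding protein of S100 proteins and was listed with the other S100 genes, had a log2 ratio of -0.40.

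Annexins are calcium-dependent membrane-binding proteins, several of which pair with S100 proteins. Of 9 measured annexin genes 3 were at least 2-fold lower and none was at least 2-fold higher, with a median log2 ratio of -0.58. The median was -0.94 over the 7 measured with the 60th percentile floor and -0.43 with median or spike-in scaling. With the 75th percentile floor 2 of 7 were at least 2-fold lower (median -0.58). Anxa2, whose protein holds S100A10 in its tetramer, had a signal of 114.6 with P25 and 262.7 with medium, 2.29-fold lower, and its other probe set had a log2 ratio of -1.26. Anxa1, whose protein limits inflammation, was 3.14-fold lower (210.1 against 660.5). Anxa3 was 4.39-fold lower (37.7 against 165.7), with a log2 ratio of -0.44 under the 75th percentile floor. Anxa13 had the highest log2 ratio, 0.70, from a signal of 16.7 with P25 and below the floor with medium.

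Of 12 measured receptors and partners of S100 proteins, 1 was at least 2-fold lower and 1 at least 2-fold higher, with a median log2 ratio of -0.10. The median moved both ways with the settings, to 0.05 with median or spike-in scaling, to -0.38 and -0.43 with the floors at the 60th and 75th percentile, and to -0.41 with the median over the probe sets of a gene, where none was at least 2-fold lower. Ahnak, a giant scaffold that binds the S100A10 and annexin A2 complex, was 3.12-fold lower (78.9 against 245.9), but its other probe set had a log2 ratio of -0.18. S100a10, Anxa2 and Ahnak were thus each at least 2-fold lower on their brightest probe sets. Cacybp, whose product binds S100A6, was 3.40-fold higher (2712 against 796.6), while S100a6 itself was 1.42-fold lower. The receptors of released S100A8 and S100A9 are named outside the rule: Tlr4 had a log2 ratio of 0.59 (103.3 against 68.7), and Ager had 0.92 on its brighter probe set (24.9 against 13.2) and -1.83 on the other.

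Of 14 measured receptors of galectins and enzymes that shape their glycans, 3 were lower and 1 was higher by 2-fold or more, and their median log2 ratio was -0.38. With the floors at the 60th and 75th percentile 1 was at least 2-fold lower, and the medians were -0.07 and -0.15. St6gal1, which caps galactose with sialic acid in a linkage that hinders binding of galectin-1, was 2.38-fold lower (1261 against 2999), and its other probe set had a log2 ratio of -1.17. The integrin gene Itgam was 3.21-fold lower, from dim signals (11.4 against 36.5), and Cd7, measured on the medium array and below the floor on the other, was lower by at least 2.93-fold. Itgam also marks myeloid cells. Cd44, a hyaluronan receptor to which galectins bind, was 2.05-fold higher (2322 against 1133), but within 2-fold after loess (log2 ratio 0.86). Its 2 other probe sets were also within 2-fold (log2 ratios 0.78 and 0.95). Havcr2, which encodes the galectin-9 receptor TIM-3, was below the floor on both arrays.

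Other APC and T cell markers are given for the labelled cell type. For B cells, 3 of 11 measured markers were lower by 2-fold or more, the median log2 ratio was -0.74, and their summed signal was 22273 with P25 and 31789 with medium. For dendritic cells, 2 of 10 measured markers were lower by 2-fold or more and 2 were higher. The median log2 ratio was -0.50, with 7 markers below 0, and came to 0.12 over the 6 measured with the 60th percentile floor. The summed signals were 4781 with P25 and 3400 with medium, mostly from Irf8 (4275 and 2939), so they describe that gene more than the list. Xcr1 was below the floor on both arrays. Of 11 T cell markers with a probe set 8 were measured, 2 of them lower by 2-fold or more and none higher by as much, and the median log2 ratio was -0.25. Cd3g (0.96), Trat1 (0.41) and Cd8a (0.37) had log2 ratios above 0. Trat1 was below the floor with medium, so its ratio could only lie above 0. The summed signals of the T cell markers were 495.2 with P25 and 1322 with medium. Most of it came from Cd2 (339.0 and 1140), and Cd3e, Cd3d and Cd4 were below the floor on both arrays. The sum is therefore mainly the signal of Cd2 and no measure of T cell RNA.

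**Figure D5:**
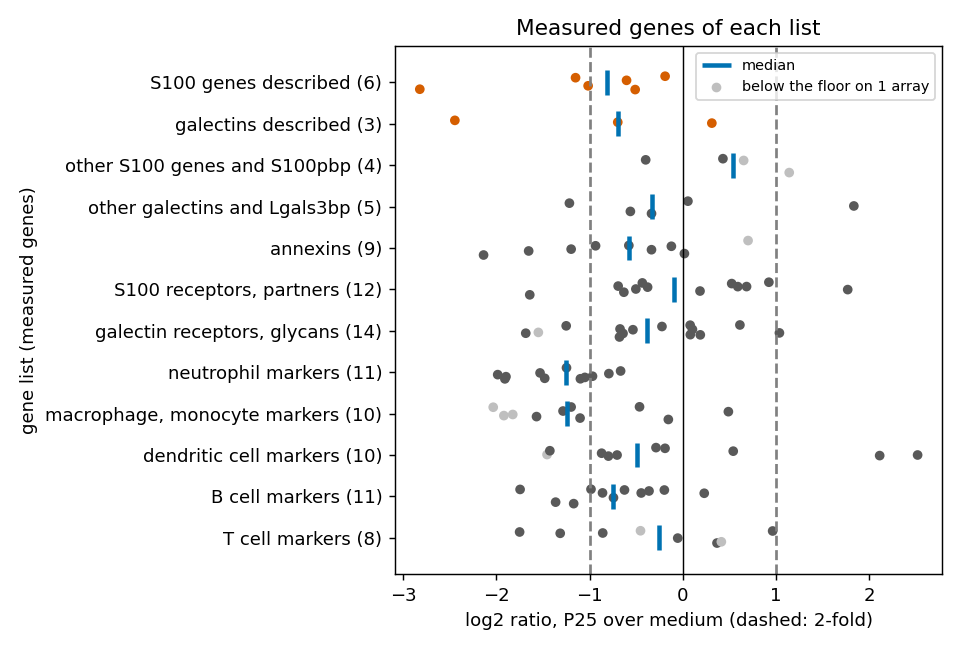
Log2 ratio of P25 over medium for the measured genes of each list (number in brackets), with the S100 and galectin genes described here in orange, genes below the floor on 1 array in light grey, a blue bar at each list's median and dashed lines at 2-fold. Neutrophil (median -1.25) and macrophage or monocyte markers (-1.24) have the lowest medians of the lists shown, and the receptors and partners of S100 proteins are spread around 0.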

How the data were processed

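Biotin-labelled RNA of spleen APCs, mixed over 3 experiments, was hybridised to 1 array per condition, per the labels. The authors deposited 1 signal intensity per probe set on a linear scale, computed by MAS5 in GCOS, per the submitters' processing notes. Neither a version nor a scaling target was named there. Because MAS5 takes mismatch signal off, dim probe sets give uncertain ratios. The median signals were 18.0 (P25) and 18.4 (medium).

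Signals below a floor, the 40th percentile over both arrays without the 64 control probe sets (10.3), were raised to it, which makes the ratio a bound where it befell 1 array. A gene was measured when 1 array was above the floor, and its brightest probe set (by mean log2 signal) stood for it. Gene names came from the platform's annotation, updated by Entrez number through the RefSeq GRCm38.p6 table; 34945 had 1 symbol, 932 several and 9160 none. Log2 ratios and the 2-fold threshold were computed in Python 3.11.15 with pandas 2.3.3, loess with statsmodels 0.14.6 (span 0.4). No test was possible with 1 array per condition, and the number of arrays limits the precision. The computation of the ratio and the calls was checked on simulated data. Its planted differences were well beyond 2-fold, in bright genes only, with less noise than between probe sets of a gene. It therefore says nothing about calls near 2-fold. The genes, lists and alternatives were chosen with earlier results of these data known. Genes of the family, annexin, receptor and partner lists are named when past 2-fold or at either end of their list, and others where a sentence turns on them; of the marker lists single genes are named as examples. No scan date was used, so a batch and the treatment cannot be told apart. The alternatives were other floors, scalings and probe sets.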

Additional observations from a re-analysis of the deposited data

How the results depend on the processing

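The number of S100 and galectin genes at least 2-fold lower with P25 was 4 as reported and 4 with a floor at the 60th or 75th percentile, with log2(signal + 16), after loess and with the median over the probe sets of a gene. It was 3 with median scaling, 2 with spike-in scaling, and 2 of the 2 genes that have a second probe set above the floor (S100a10 and Lgals1). No gene was at least 2-fold higher under any of these, and the median log2 ratio lay between -1.13 and -0.55. Leaving out S100a8 and S100a9, an alternative added after seeing the data, gave 3 of 7 genes. Of 65 values of single genes under these alternatives, 64 moved by less than the SD of 0.58 between probe sets of a gene and none changed sign. The other was S100a4 with the 75th percentile floor (-1.42), where its P25 signal is set to the floor. Many of the 64 could not have moved by that much, so their number is no measure of stability. The signals of the other genes exceed the higher floors, and genes with a single probe set have no other to use. The median and spike-in scalings shift every ratio by the same amount, smaller than that SD. Over all genes, 931 were at least 2-fold lower as reported, 591 and 357 with the 60th and 75th percentile floors (9181 and 6953 genes measured), 576 with log2(signal + 16) and 642 and 626 with median and spike-in scaling; 1216 were at least 2-fold higher as reported, 657 with the 75th percentile floor, and 1623 and 1639 with median and spike-in scaling. Of the calls, 64.8% were higher with the 75th percentile floor. No paired analysis was possible because each condition has 1 array. Signal near the floor limits S100a1, S100a5 and S100a16.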
